A study of Rattus norvegicus with 100 samples.

Results

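Gene expression in the uterus of immature female rats was compared between animals of an OECD uterotrophic assay that received ethinylestradiol (EE), a synthetic estrogen, and control animals at the 4 h time point. The comparison rests on the 5 uterus arrays titled with EE and 4 h and the 5 titled with control and 4 h, which are 10 of the 100 arrays of the study. The study covers the uterus at 7 times and the pituitary gland at 5 times, with an EE group and a control group at each. Both groups are female rats labelled as immature. No strain, allele, vehicle, dose, route or dosing schedule is given in the labels, and no age beyond the stage. Nor do they tell whether an array was made from its own animal, and the p-values therefore reflect only how far these arrays vary.

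Estrogens enter cells and bind estrogen receptors, which are transcription factors that act on DNA directly or through partners such as AP-1. In the immature uterus an estrogen first gives a wave of water uptake, blood flow and transcription factor genes, then growth of the cells in RNA and protein, and later DNA synthesis and division. The tissue is a mixture of smooth muscle, stroma, epithelium, vessels and immune cells, and in such bulk samples fewer cells of a type and less RNA per cell cannot be told apart.

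Biotin-labelled total RNA was read on Affymetrix RAE230A arrays, and the deposited values are linear intensities per probe set, of which many are blank. Each of the 10 arrays held 9591 to 10323 values. The blank share was 37.3 ± 1.55% on EE and 37.5 ± 1.71% on control arrays (SD, n = 5, exact permutation p = 0.897, two-sided). The median intensity was 99.1 ± 2.33 on EE and 103 ± 2.09 on control arrays (exact permutation p = 0.0397, adjusted p = 0.159 over 4 measures), and the smallest p that 5 against 5 arrays allow is 0.00794. The log2 difference between the 3′ and 5′ control probe sets of Actb, a sign of RNA integrity that rises as RNA breaks down, was 0.41 ± 0.15 on EE and 0.61 ± 0.17 on control arrays (exact permutation p = 0.0873, adjusted p = 0.175). Its part in the results was not tested. The uterine and smooth muscle genes Hoxa10, Hoxa11, Esr1, Pgr, Actg2, Myh11 and Des had a value on all 10 arrays, and of 7 pituitary genes 6 were blank on all 10, while Lhb had a value on 5.

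Per gene the probe set with the highest mean was used. Differences are log2 of the intensity plus 30.4, EE minus control, ± the standard error of a limma model over the 70 uterus arrays, and folds are on that scale, so that weak genes show smaller folds than their raw ratios. A gene was tested where at least 3 of 5 arrays of each group had a value, and it rose or fell where its Benjamini-Hochberg adjusted p over all genes tested was under 0.05. The number of arrays per group, 5 unless another n is given, limits the precision. Intensities are listed in the order of the array numbers in the titles, 14 to 18 for control and 19, 20, 21, 23 and 24 for EE. Different probe sets bind with different strength, so no gene's intensity is set against that of another. All gene lists below were put together with earlier results of these data known. Their counts are therefore not independent evidence of the direction of their members.

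Of 6891 genes tested, 4005 passed (58.1%). EE arrays were higher for 1629 genes (23.6% of those tested) and lower for 2376 (34.5%). The median log2 difference of all tested genes was -0.08. The rises reached further than the falls. At least 2-fold differences were called for 141 rises (2.05%) and 70 falls (1.02%). These counts follow the offset, since an offset of 1 gave 233 and 193 and an offset of 4 times the 10th percentile gave 61 and 7. The 5 EE arrays lay wholly above the 5 control arrays for 1212 genes (17.6%) and wholly below for 1652 (24.0%).

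**Figure D1:**
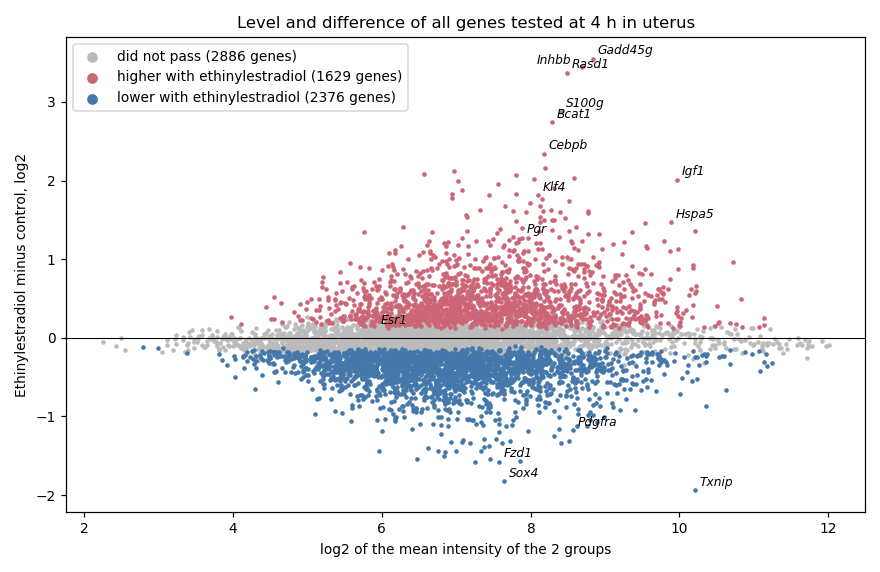
Log2 difference (EE minus control, vertical axis) against the log2 of the mean of the group mean intensities (horizontal axis) for the 6891 genes tested at 4 h, with one point per gene, coloured by call. The 1629 rises extend above log2 3, with Gadd45g at 3.55, while the falls end at -1.94 with Txnip.

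The largest rise was that of Gadd45g, known from growth arrest and DNA damage, whose protein acts on stress kinases. Its intensity was 52.2, 34.8, 52.1, 44.6 and 47.1 on the control arrays and 972, 711, 819, 827 and 1013 on the EE arrays. The groups were far apart, and the rise was 11.7-fold (log2 3.55 ± 0.12, limma adjusted p = 1.13e-34). Inhbb, the gene of a subunit of activin B and inhibin B, was at 53.5, 40.2, 35.3 and 49.3 on 4 control arrays (blank on array 16) and at 766, 934, 674, 736 and 814 with EE. Every EE array exceeded every control value, a 10.9-fold rise (log2 3.44 ± 0.13, limma adjusted p = 1.48e-31). Rasd1, which encodes a GTPase related to Ras, was at 40.3, 33.005, 45.3 and 33.959 on 4 control arrays (blank on array 16), against 733, 626, 594, 742 and 699.98 with EE. That rise was 10.3-fold (log2 3.37 ± 0.11, limma adjusted p = 2.94e-35), with tight groups on both sides.

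S100g encodes calbindin D9k, a calcium-binding protein of the uterus and gut. Its control intensities of 68.7, 52.3, 55.956, 57.2 and 53.8 compare with 584, 709.8, 601, 746 and 469 with EE. No array of one group came near the other, and the rise was 7.34-fold (log2 2.88 ± 0.14, limma adjusted p = 9.37e-27). Bcat1, the cytosolic enzyme that transfers the amino group of leucine, isoleucine and valine, was at 33.9, 69.6, 68.6 and 66.6 on 4 control arrays and at 612, 457, 618, 604 and 540.03 on the EE arrays. Control array 14 was the low one and array 18 was blank. It rose 6.69-fold (log2 2.74 ± 0.20, limma adjusted p = 3.74e-17). The control values of the transcription factor gene Cebpb were 80.9, 63.7, 95.4, 66.8 and 68.6 and its EE values 612, 518, 457, 441 and 489, again without overlap, for a 5.06-fold rise (log2 2.34 ± 0.12).

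The next largest rises were those of Il4r (4.48-fold, log2 2.16 ± 0.12), a receptor for interleukin 4, and Lgr6 (4.36-fold, log2 2.13 ± 0.14, 3 control values), a receptor for R-spondins. Trmt61a, the catalytic subunit of a transfer RNA methyltransferase, rose 4.20-fold (log2 2.07 ± 0.12). Errfi1, an inhibitor of the EGF receptor, rose 4.10-fold (log2 2.04 ± 0.13). The actin-associated protein gene Enc1 (4.06-fold, log2 2.02 ± 0.10), the cytokine receptor gene Tnfrsf12a (3.97-fold, log2 1.99 ± 0.10) and the coenzyme Q binding protein gene Coq10b (3.89-fold, log2 1.96 ± 0.10) followed. Fos and Igf1 complete the 15 largest rises and are described with their groups.

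**Figure D2:**
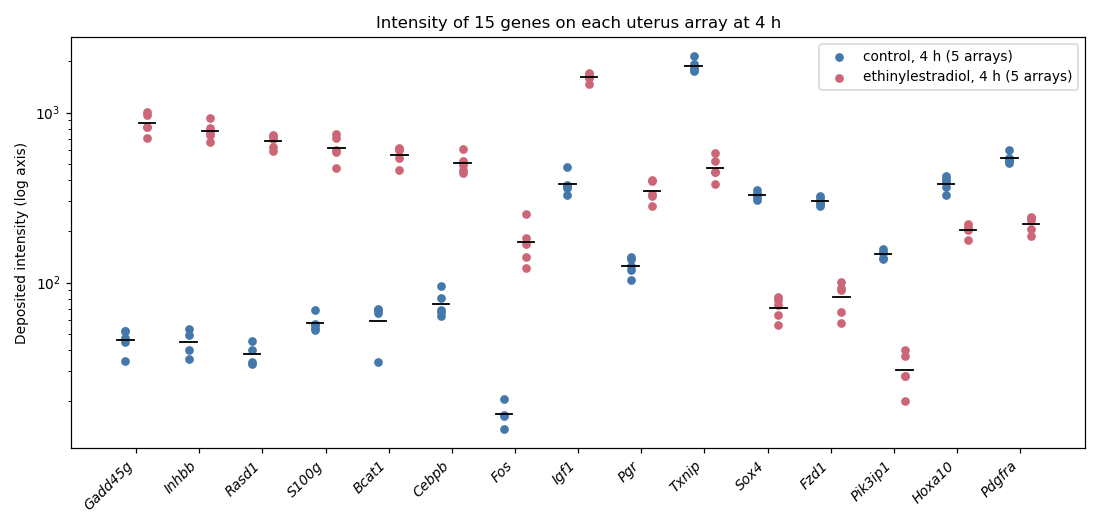
Deposited intensity on a log axis for 15 genes on each of the 5 control and 5 EE uterus arrays at 4 h, with one point per array and a black bar at the group mean over the arrays with a value. For all 15 genes shown the EE points lie wholly above (Gadd45g to Pgr) or wholly below (Txnip to Pdgfra) the control points.

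Beyond the genes with a fold, 60 genes had a value on all 5 EE arrays and on no control array, and 30 had values on all control arrays and no EE array. The brightest of the former was Ngfr, the low-affinity receptor for neurotrophins, at 845, 555, 803, 748 and 1007 on the EE arrays. The neuropeptide gene Gal was at 768, 733, 343, 553 and 442 and Nppc, which encodes C-type natriuretic peptide, at 446, 223, 335, 243 and 457. These were blank on every control array at 4 h, and no fold is given for them. Ngfr had a value on 3 of 5 control arrays at 2 h and on 1 at 8 h, while Gal and Nppc had none there. The Cdc42 effector gene Cdc42se1 (254 ± 40.9, mean ± SD), the uncharacterised LOC102547700 (242 ± 15.2), Sfn (229 ± 169.6), which encodes an epithelial 14-3-3 protein, Farsb (216 ± 28.7), a subunit of phenylalanyl transfer RNA synthetase, Ccdc86 (152 ± 17.5), the adhesion molecule gene Icam1 (150.03 ± 22.3) and the cell cycle inhibitor gene Cdkn1a (144 ± 13.5) complete the 10 brightest. Farsb had values on 2 control arrays at 2 h and 1 at 8 h, and Ccdc86 on 2 and 3. Among the genes valued only on control arrays, Amigo2, a cell adhesion protein gene, was the brightest at 205, 153, 203, 245 and 203. It was followed by Atf7ip (123 ± 22.2), the pyruvate dehydrogenase kinase gene Pdk2 (122 ± 13.2), the prostaglandin E receptor gene Ptger3 (122 ± 23.4) and Lztfl1 (120.5 ± 9.64). LOC102555109 (116 ± 9.97), Tspyl4 (98.2 ± 8.09), the lipoic acid synthase gene Lias (90.2 ± 8.49), Fbxo25 (88.8 ± 11.5) and the chemokine receptor gene Cxcr4 (84.6 ± 5.94) followed.

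Immediate-early transcription factors, which cells switch on without new protein synthesis, were mostly higher. Of 18 tested members 15 rose (83.3%, against 23.6% of all genes) and 0 fell, with a median log2 difference of 0.93 against -0.08 over all genes. Fos, a subunit of AP-1, was at 16.4, 20.6, 16.6 and 13.7 on 4 control arrays (blank on array 14) and at 252, 168, 141, 122 and 183 on the EE arrays. The EE values were spread but none reached the control range, and the rise was 4.22-fold (log2 2.08 ± 0.20, limma adjusted p = 4.42e-13). Myc, a transcription factor of growth and ribosome genes, was at 97.1, 134, 116, 105 and 104 in controls and 304, 298, 250.1, 272 and 300.4 with EE. The groups did not overlap (log2 1.16 ± 0.09, limma adjusted p = 1.23e-17). The zinc finger factor gene Egr1, picked after its values were seen, had control values of 259.5, 228, 202, 251 and 225 and EE values of 731, 526, 572, 456 and 926. Its EE arrays were widely spread and all above the controls (log2 1.31 ± 0.15). Klf4, a zinc finger factor of epithelia and vessels, was at 95.9, 103, 120.4, 84.2 and 102 in controls and 442, 689, 339, 473 and 295 with EE, again apart (log2 1.81 ± 0.18). The orphan nuclear receptor gene Nr4a1 (1.56 ± 0.11), Zfp36 (1.24 ± 0.08), whose protein destabilises messenger RNAs, Ier2 (1.18 ± 0.10) and Srf (0.80 ± 0.07), the serum response factor, rose as well. Another Srf probe set did not pass (0.20), and with both averaged Srf was at 0.096 and was not called (limma adjusted p = 0.743). The members without a call were Klf10, Ier5 and Klf6.

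Among feedback inhibitors of growth factor signalling 5 of 10 tested members rose (50%, against 23.6% of all genes). A fall was called for 2 (20%, against 34.5%), and 9 rose when blanks were filled with a low value. Besides Rasd1 and Errfi1, the MAP kinase phosphatase genes Dusp1 (0.87 ± 0.09) and Dusp5 (0.74 ± 0.08) and the receptor signalling inhibitor gene Spry2 (0.36 ± 0.12, not called without EE array 19) rose. Its relative Spry1 fell (-0.64 ± 0.08), as did Rgs2 (-1.19 ± 0.11), which shortens signals of G proteins. Of the EGF receptor family and its ligands only 3 genes could be tested. Among them Errfi1 rose, the ligand gene Ereg fell (-0.27 ± 0.09) and the ligand gene Btc did not pass (0.15 ± 0.15). Ereg was at -0.19 and not called after quantile normalization (limma adjusted p = 0.0626), and with blanks filled with a low value 4 genes of the list rose and 2 fell.

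In the list of steroid receptors and coregulators, 3 of 19 rose and 8 fell, shares of 15.8% and 42.1% against 23.6% and 34.5% of all genes. Pgr, which encodes the progesterone receptor and is a textbook target of the estrogen receptor, was at 141, 118, 103, 138 and 124 in controls and 325, 281, 332, 399 and 395 with EE. All EE arrays were above the highest control array (log2 1.27 ± 0.11, limma adjusted p = 2.72e-15). The estrogen receptor gene Esr1 was at 60.9, 50.044, 45.2, 68.4 and 60.8 in controls and 75.8, 52.5, 60.4, 61.9 and 70.9 with EE. Its groups overlapped, and the difference of 0.12 ± 0.11 did not pass (limma adjusted p = 0.374). Esr2, the second estrogen receptor gene, was blank on all 10 arrays. The co-activator gene Cited4 rose (1.87 ± 0.12) and its relative Cited2 fell (-1.44 ± 0.08). Fkbp4, a co-chaperone of steroid receptors, rose (1.02 ± 0.11). The glucocorticoid receptor gene Nr3c1 (-0.76 ± 0.10), the stromal orphan receptor gene Nr2f2 (-0.87 ± 0.10), the retinoic acid receptor gene Rarb (-0.32 ± 0.08) and the coactivator gene Ncoa1 (-0.45 ± 0.08) fell.

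Genes known to respond to estrogen in the uterus formed a list of 17 tested members, of which 12 rose (70.6%) and 1 fell (2 without EE array 20, which adds Muc1), with a median of 0.83. Like the other lists, it was put together with earlier results of these data known and is not independent evidence of their direction. Adm, which encodes the vasodilator adrenomedullin, was at 43.028, 29.6, 36.4, 39.015 and 28.3 in controls and 132, 77.959, 107, 107 and 121 with EE. It rose 2.11-fold (log2 1.08 ± 0.13, limma adjusted p = 4.32e-10), and the lowest EE array was well clear of the controls. Wnt4, a secreted Wnt ligand, was at 78.6, 138, 108, 122 and 118 in controls and 428, 417, 228, 309 and 236 with EE. Its EE values covered a wide range that still lay above the controls (log2 1.28 ± 0.16). The Wnt antagonist gene Sfrp4 was the member that fell (-0.47 ± 0.11), while Muc1, Tff1, Ccnd1 and Ctsd did not pass. C3, the complement component often used as a marker of estrogen action in the rat uterus, had values on 4 EE arrays and 1 control array and was not tested.

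Of the Igf genes, the ligand and its receptor moved in opposite directions. Igf1, insulin-like growth factor 1, was at 376, 481, 358, 329 and 369.7 in controls and 1600.4, 1483, 1661, 1629 and 1720 with EE. These groups were narrow and far apart, a 4.02-fold rise (log2 2.01 ± 0.09, limma adjusted p = 6.09e-28). The receptor gene Igf1r was at 218, 173, 179.8, 216 and 214 in controls and 138, 109, 107, 109.97 and 133 with EE. It fell 1.54-fold (log2 -0.62 ± 0.11), without overlap. The adaptor genes Grb10 (-0.54 ± 0.09) and Irs2 (-0.61 ± 0.11), the binding protein genes Igfbp3 (-0.71 ± 0.12) and Igfbp6 (-0.59 ± 0.12) and the scavenging receptor gene Igf2r (-0.42 ± 0.12) fell. The growth hormone receptor gene Ghr was the other member that rose (0.24 ± 0.08), so that 8 of 14 fell and 2 rose (1 when all probe sets of a gene were averaged). Falls were 57.1% and rises 14.3% of this list, against 34.5% and 23.6% of all genes.

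Genes for making ribosomes were higher nearly throughout. Of 54 tested members, 49 rose (90.7%) and 0 fell, with a median of 0.76. On each array the mean over the 48 members with all values lay between 0.75 and 0.81 above the control mean with EE, and between -0.05 and 0.05 in controls. Nop56, a core protein of the box C/D particles that modify ribosomal RNA, was at 152, 178, 129, 141 and 159 in controls and 553, 586, 576, 590.1 and 580.4 with EE. It rose 3.35-fold (log2 1.74 ± 0.11, limma adjusted p = 7.7e-22), and the EE values were close to each other. Gnl3, which encodes the nucleolar GTPase nucleostemin, was at 123, 149, 119.9, 155 and 129.7 in controls and 520.01, 443, 447, 478 and 517 with EE. The rise was 3.09-fold (log2 1.63 ± 0.07, limma adjusted p = 4.37e-28). Further members were the small-subunit assembly factor gene Tsr1 (1.61 ± 0.08), Nop58 (1.58 ± 0.08), the partner of Nop56, Mrto4 (1.54 ± 0.10), Brix1 (1.23 ± 0.07) and Nip7 (1.18 ± 0.08), which take part in large-subunit assembly, and Utp4 (1.11 ± 0.07), of the small-subunit processome.

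Promoter windows were searched because these genes moved together. RefSeq promoters (build GRCr8) span 250 bases before to 50 after the gene's start, and 48 of the tested ribosome biogenesis genes had one. The motifs searched on both strands were the E-box CACGTG, which Myc and related factors are known to bind, the palindromic estrogen response element (GGTCA, any 3 bases, TGACC), the AP-1 site TGANTCA, the GC box GGGCGG and the composite site of Atf4 and Cebp factors TGATGNAA (reverse strand TTNCATCA). None of these motifs lies wholly inside another. The E-box was in 14 of the 48 windows (29.2%), against 9.64% of the 5788 windows of genes tested at 4 h and 6.65% of all 27457 windows. It was also in 18.2% of the windows of the quiescence and FoxO-linked genes, a list that mostly fell. Other shares were 20% in the synthetase and Atf4 lists, 16.7% in the largest rises and 15.4% in the estrogen-responsive list. The immediate-early list and the largest falls had 8.33% each. The estrogen response element was in 0 windows of tested genes and in 7 of all windows, so none of the 12 largest rises with a window holds it in these bases. A match is a description of the letters and not a binding site. The windows of Gnl3 and Tsr1, the members with the smallest adjusted p that hold a match, are given 5′ to 3′ on the gene's strand, with the E-box in capitals. It starts 25 bases before the start in Gnl3 (chr16:6219733-6220032, minus strand) and 20 bases after it in Tsr1 (chr10:60258540-60258839, plus strand).
Gnl3: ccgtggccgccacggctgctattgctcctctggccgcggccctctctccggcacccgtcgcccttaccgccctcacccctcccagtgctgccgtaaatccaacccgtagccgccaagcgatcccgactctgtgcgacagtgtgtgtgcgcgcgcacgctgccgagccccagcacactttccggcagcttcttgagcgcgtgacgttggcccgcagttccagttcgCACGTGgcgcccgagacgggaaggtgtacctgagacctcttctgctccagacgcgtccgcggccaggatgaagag
Tsr1: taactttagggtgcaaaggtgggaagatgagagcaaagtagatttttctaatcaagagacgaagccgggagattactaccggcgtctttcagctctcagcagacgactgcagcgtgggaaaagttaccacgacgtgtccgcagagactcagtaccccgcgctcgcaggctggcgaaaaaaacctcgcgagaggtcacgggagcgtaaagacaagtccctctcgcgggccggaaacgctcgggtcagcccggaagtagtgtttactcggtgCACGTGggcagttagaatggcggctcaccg

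The messenger RNAs of the ribosomal proteins themselves did not follow. Of 36 tested cytosolic ribosomal protein genes 0 rose and 3 fell (Rpl34, Rpl21 and Rplp0, between -0.21 and -0.16), with a median of -0.07, near that of all genes. Leaving out control array 14 or 16 or EE array 19 left 1 of the 3, and another Rps24 probe set passed at 0.98. Nuclear transport genes rose in 19 of 25 cases and fell in 1 (median 0.46). These included the importin genes Kpna1 (1.23 ± 0.09), Kpna4 (0.88 ± 0.10), Kpnb1 (0.86 ± 0.10), Ipo5 (0.75 ± 0.07) and Ipo4 (0.50 ± 0.07) and the GTPase gene Ran (0.88 ± 0.08) with its activator gene Rangap1 (0.68 ± 0.07, not called when blanks were filled). The pore gene Nup205 rose (0.65 ± 0.10) and Nup37 was the member that fell (-0.32 ± 0.09). Another Nup37 probe set did not pass (-0.10). Translation factors rose in 28 of 42 cases and fell in 5. The helicase gene Eif4a1 (1.36 ± 0.07), the initiation factor genes Eif2s1 (1.12 ± 0.07) and Eif2s2 (1.22 ± 0.07) and the release factor genes Etf1 (1.27 ± 0.08) and Gspt1 (0.89 ± 0.06) were among the rises. Eif4ebp2, which holds back cap-dependent initiation, fell (-0.35 ± 0.06), as did Eif4b (-0.43 ± 0.09) and the elongation factor gene Eef2 (-0.18 ± 0.06).

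Transfer RNA synthetases, which load amino acids onto transfer RNAs, rose in 15 of 17 cases (88.2%, median 0.62). Aars1, for alanine, was at 139.8, 173, 179, 161 and 148 in controls and 474, 544, 385, 429 and 488 with EE. The lowest EE array was above the highest control array by a wide margin (2.59-fold, log2 1.37 ± 0.08, limma adjusted p = 3.01e-23). Yars1 (1.22 ± 0.09), for tyrosine, Nars1 (1.02 ± 0.08), for asparagine, Cars1 (0.98 ± 0.09), for cysteine, Gars1 (0.94 ± 0.07), for glycine, Rars1 (0.85 ± 0.08), for arginine, and Mars1 (0.84 ± 0.09), for methionine, rose too. Qars1, for glutamine, fell (-0.34 ± 0.07), and Hars1, for histidine, did not pass. The composite site TGATGNAA was in 6 of the 15 synthetase windows (40%), those of Aars1, Yars1, Nars1, Cars1, Mars1 and Iars1, against 1.8% of the windows of genes tested and 3.82% of all windows. It starts 112 bases before and 9 bases after the start in Aars1 (chr19:55908232-55908531, plus strand) and 14 bases before it in Nars1 (chr18:60275733-60276032, minus strand), shown as 2 examples of the 6 windows that hold the site, with the site in capitals. Both Aars1 matches read on the reverse strand. The Aars1 window also holds the E-box letters and the Nars1 window 2 AP-1 sites and a GC box, left in lower case.
Aars1: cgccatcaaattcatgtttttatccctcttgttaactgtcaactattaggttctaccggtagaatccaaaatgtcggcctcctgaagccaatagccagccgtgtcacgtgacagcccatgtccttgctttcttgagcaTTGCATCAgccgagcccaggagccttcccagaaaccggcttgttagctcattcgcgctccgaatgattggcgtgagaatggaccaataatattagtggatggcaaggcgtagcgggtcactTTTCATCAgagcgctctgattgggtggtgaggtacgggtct
Nars1: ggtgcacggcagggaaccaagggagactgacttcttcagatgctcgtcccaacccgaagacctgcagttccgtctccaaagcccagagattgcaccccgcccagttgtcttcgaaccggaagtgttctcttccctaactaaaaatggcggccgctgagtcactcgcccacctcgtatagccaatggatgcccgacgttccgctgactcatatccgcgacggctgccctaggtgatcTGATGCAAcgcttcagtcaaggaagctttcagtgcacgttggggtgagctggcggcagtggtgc

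Genes of the Atf4 axis, through which cells answer a shortage of amino acids, were mixed (10 of 22 rose, 4 fell, median 0.00). Rises made up 45.5% and falls 18.2%, against 23.6% and 34.5% of all genes. Atf4 itself rose (1.23 ± 0.06), with the serine hydroxymethyltransferase genes Shmt2 (1.33 ± 0.11) and Shmt1 (0.57 ± 0.09), the aspartate aminotransferase gene Got1 (1.26 ± 0.13), the asparagine synthetase gene Asns (0.71 ± 0.10), the glutathione-degrading enzyme gene Chac1 (1.0 ± 0.11) and the proline synthesis gene Aldh18a1 (0.60 ± 0.09). Ddit3, a stress factor downstream of Atf4, fell (-0.28 ± 0.11), as did Ddit4 (-0.45 ± 0.10), an inhibitor of mTOR, and the branched-chain amino acid genes Bckdha (-0.35 ± 0.09) and Bcat2 (-0.28 ± 0.08). The call of Ddit3 was lost without control array 16 or EE array 19, 20 or 23. Amino acid and glucose transporters rose in 9 of 17 cases and fell in 5 (52.9% and 29.4%, against 23.6% and 34.5% of all genes). Slc7a5, the light chain of a transporter of large neutral amino acids, was at 31.8, 38.2, 39.9 and 38.2 on 4 control arrays (blank on array 16) and at 244, 223, 169, 198 and 216 with EE. It rose 3.55-fold (log2 1.83 ± 0.10, limma adjusted p = 1.29e-22), with all EE arrays apart from the controls. Its heavy chain gene Slc3a2 (0.79 ± 0.07), the arginine and lysine transporter gene Slc7a1 (1.49 ± 0.09), the lactate transporter gene Slc16a1 (1.35 ± 0.09) and the glutamine transporter genes Slc1a5 (0.71 ± 0.10) and Slc38a1 (0.77 ± 0.09) rose. The glutamate transporter gene Slc1a3 (-1.30 ± 0.13) and the taurine transporter gene Slc6a6 (-0.53 ± 0.12) fell, the latter at -0.22 and not called with all probe sets averaged (limma adjusted p = 0.0508).

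Polyamine and nucleotide synthesis genes rose in 16 of 26 cases (61.5%, against 23.6% of all genes) and fell in 4 (15.4%, against 34.5%). Odc1, ornithine decarboxylase, the first enzyme of polyamine synthesis, was at 104, 136, 103, 109 and 126 in controls and 496, 697, 476, 495 and 435 with EE. Its second EE array was the highest by far, and all EE arrays were above the controls (3.73-fold, log2 1.90 ± 0.15). The spermidine synthase gene Srm (1.72 ± 0.14), the S-adenosylmethionine decarboxylase gene Amd1 (0.80 ± 0.09) and Azin1 (0.88 ± 0.09), which protects ornithine decarboxylase, rose. The antizyme gene Oaz2 fell (-0.27 ± 0.06), as did Arg2 (-0.88 ± 0.15), an arginase that supplies ornithine. The CTP synthase gene Ctps1 rose (1.82 ± 0.09) while its relative Ctps2 fell (-0.37 ± 0.08). The phosphoribosyl pyrophosphate synthetase genes split likewise, with Prps1 at 0.63 ± 0.09 and Prps2 at -0.22 ± 0.09, the latter not called without control array 17 or 18 or EE array 19 or 21.

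Protein folding genes rose in the cytosol, the mitochondria and the endoplasmic reticulum. Among cytosolic and mitochondrial chaperones 26 of 29 rose (89.7%) and 0 fell (median 0.66). The mitochondrial chaperone genes Hspd1 (0.92 ± 0.07) and Hspa9 (1.23 ± 0.10), the Hsp110 gene Hsph1 (1.5 ± 0.12), the Hsp90 co-chaperone gene Stip1 (1.02 ± 0.09) and the chaperonin subunit genes Cct3 (0.80 ± 0.07) and Cct7 (0.69 ± 0.05) are examples. In the endoplasmic reticulum 22 of 37 members rose and 2 fell (1 without control array 14 or 17 or EE array 21). Hspa5, the Hsp70 of that compartment, was at 423, 489, 475, 564 and 489 in controls and 1301, 1608, 1243, 1329 and 1558 with EE. The rise was 2.77-fold (log2 1.47 ± 0.12, limma adjusted p = 6.07e-16), with a wide gap between the groups. Manf (1.13 ± 0.10) and Creld2 (0.89 ± 0.13), known as genes of the stress response of that compartment, its co-chaperone gene Dnajc3 (0.66 ± 0.08), its chaperone gene Hyou1 (0.93 ± 0.15) and the translocon gene Sec61a1 (0.63 ± 0.09) rose, and the prolyl isomerase gene Ppib (-0.22 ± 0.08) and the signal recognition gene Srp14 (-0.19 ± 0.07) fell.

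Proteasome subunit genes rose in 23 of 28 cases (82.1%) and 0 fell, by small amounts (median 0.32), with Psmc5 at 0.68 ± 0.10 and Psmd3 at 0.61 ± 0.06. RNA splicing genes rose in 26 of 36 cases (72.2%) and 0 fell (median 0.50), among them Hnrnpab (1.11 ± 0.09), Srsf2 (0.87 ± 0.07) and Hnrnpf (0.84 ± 0.08), whose proteins bind pre-messenger RNA. Mitochondrial ribosome and import genes rose in 20 of 43 cases (46.5%, against 23.6% of all genes). They fell in 6 (14%, against 34.5%, and 3 without control array 14). Import genes led with Timm10 (1.21 ± 0.08), Tomm40 (0.92 ± 0.11), Timm9 (0.76 ± 0.07), Tomm70 (0.74 ± 0.05) and Timm17a (0.70 ± 0.06), beside the ribosomal genes Mrps2 (1.18 ± 0.07) and Mrpl12 (0.99 ± 0.08). The falls were all of ribosomal proteins, Mrps33 (-0.39 ± 0.10) first. The respiratory chain had 7 of 48 members higher and 5 lower (3 without control array 15), around a median of 0.00, and both shares were below those of all genes. Cyc1 rose (0.50 ± 0.09), and the succinate dehydrogenase genes were split, with Sdha at -0.41 ± 0.08 and Sdhb at 0.24 ± 0.07.

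Cholesterol synthesis genes rose in 6 of 16 cases and fell in 3, shares of 37.5% and 18.8% against 23.6% and 34.5% of all genes. The enzyme genes Idi1 (1.04 ± 0.16), Sqle (1.12 ± 0.22), Cyp51 (0.91 ± 0.16), Msmo1 (0.84 ± 0.15) and Fdps (0.64 ± 0.16) rose, and Insig2, which restrains the pathway, fell (-1.18 ± 0.09). Of the glycolysis genes 6 of 17 rose and 4 fell (35.3% and 23.5%, against 23.6% and 34.5% of all genes). The lactate dehydrogenase genes parted, with Ldha at 0.73 ± 0.09 and Ldhb at -0.65 ± 0.07, and the glucose transporter gene Slc2a1 (0.64 ± 0.11) rose while the muscle phosphofructokinase gene Pfkm (-0.56 ± 0.07) fell. Fatty acid oxidation and peroxisome genes fell in 15 of 27 cases (55.6% against 34.5% of all genes, median -0.29). The thiolase gene Acaa2 (-0.82 ± 0.13), Ech1 (-0.70 ± 0.10), the carnitine transferase gene Cpt1a (-0.61 ± 0.11), the dehydrogenase genes Acadm (-0.60 ± 0.10) and Hadh (-0.52 ± 0.08) and the catalase gene Cat (-0.60 ± 0.10) were among them. The nuclear receptor gene Ppard was the member that rose (0.22 ± 0.08, with no rise called without control array 15).

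**Figure D3:**
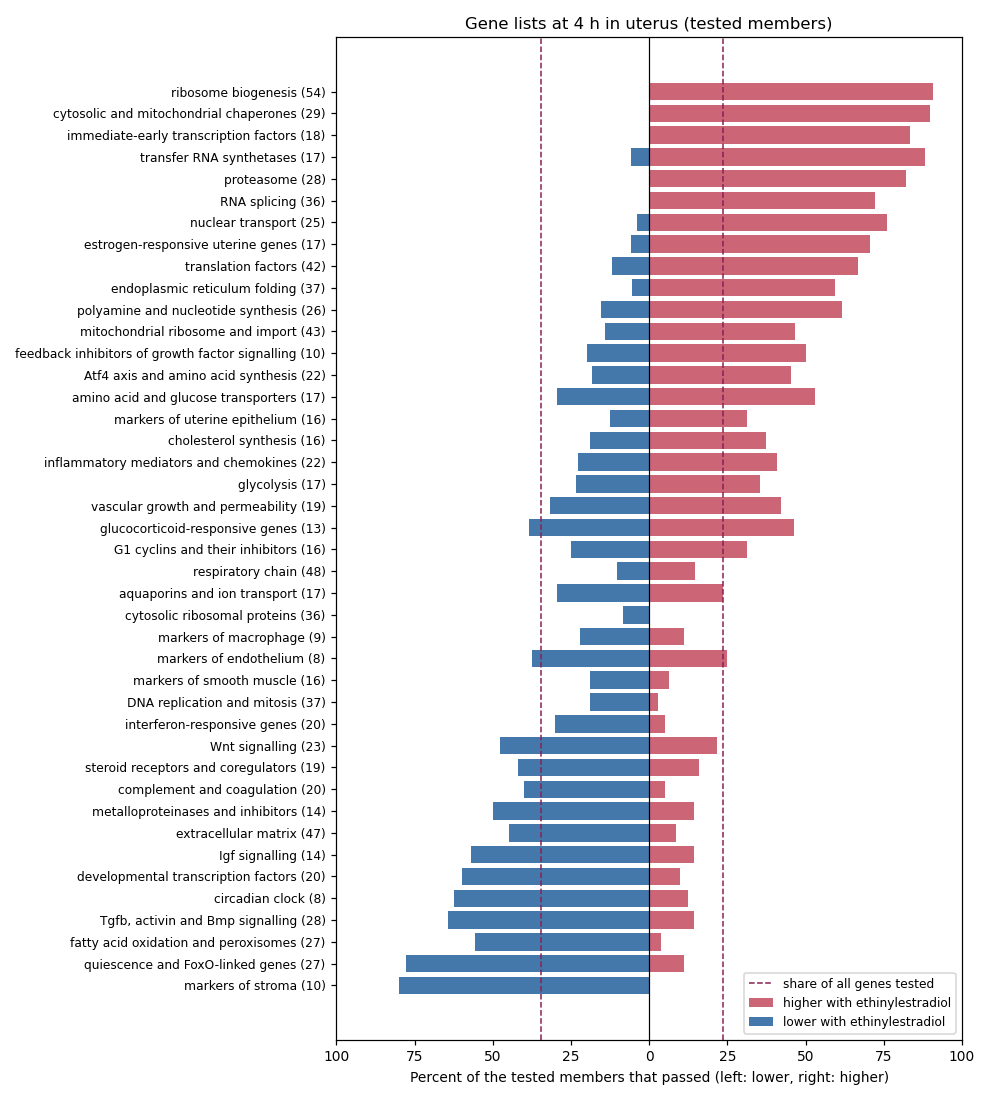
Share of the tested members of each gene list (number of tested members in brackets) that were called higher (right, red) or lower (left, blue) with EE at 4 h, for lists with 8 or more tested members. The dashed lines mark the shares of all genes tested, 23.6% higher and 34.5% lower, and the ribosome biogenesis list reaches 90.7% on the right while the stroma markers reach 80% on the left.

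The largest fall was that of Txnip, which encodes a thioredoxin-binding protein that limits glucose uptake. It was at 2156, 1752, 1923, 1833 and 1786 in controls and 519, 446, 448, 379 and 579.7 with EE. The groups were far apart, a 3.83-fold fall (log2 -1.94 ± 0.14, limma adjusted p = 3.3e-18). Sox4, a transcription factor of development, had control values of 305, 332, 318, 351 and 334 and EE values of 74.2, 81.9, 56.1, 64.6 and 78.6. This fall was 3.54-fold (log2 -1.82 ± 0.09, limma adjusted p = 4.99e-26) with narrow groups, while another Sox4 probe set passed at -0.19. The Wnt receptor gene Fzd1 went from 281, 314, 296, 324 and 288 in controls to 92.7, 90.7, 67.2, 57.8 and 100.9 with EE. All EE values were well below the controls (2.98-fold, log2 -1.57 ± 0.09). Pik3ip1, an inhibitor of phosphatidylinositol 3-kinase, was at 157, 138, 151, 149 and 139 in controls and 19.997, 28.038, 28.3, 36.9 and 40.2 with EE. Here the EE values were among the low intensities of the arrays, and the fall was 2.92-fold on the offset scale (log2 -1.55 ± 0.11).

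The further large falls were Eva1b (-1.57 ± 0.10), the ubiquitin ligase gene Pdzrn3 (-1.56 ± 0.10), Mxi1 (-1.54 ± 0.11), whose protein competes with Myc for its partner Max, Rin2 (-1.51 ± 0.13), the corepressor gene Tle1 (-1.45 ± 0.07), Mylip (-1.44 ± 0.12), a ubiquitin ligase for the LDL receptor, the arrestin-like gene Arrdc3 (-1.44 ± 0.12), Snx33 (-1.39 ± 0.10) and the receptor coactivator gene Pnrc1 (-1.38 ± 0.13), with Cited2 and Tcf21 described with their groups. Genes linked to quiescence and to FoxO factors fell in 21 of 27 cases (77.8%, median -0.76). They included the factor gene Foxo3 (-0.93 ± 0.08), Ypel5 (-0.94 ± 0.07) and Rbl2 (-0.93 ± 0.07), a relative of the retinoblastoma protein that holds cells out of the cycle. Cdkn1b, the cyclin-dependent kinase inhibitor p27, was at 391, 342, 312, 397 and 365 in controls and 167, 177, 171, 187 and 228 with EE. It fell 1.81-fold (log2 -0.86 ± 0.12), and no EE array reached a control value, though the mean of its probe sets did not pass. The members that rose were Gadd45g, Gadd45a (1.39 ± 0.12) and the antiproliferative gene Tob1 (0.42 ± 0.12).

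Transcription factors of uterine development were largely lower, with 12 of 20 falling (60%) and 2 rising (1 without EE array 20). Hoxa10, a homeobox gene of the uterus that patterns the tract, was at 406, 328, 363, 392 and 422 in controls and 177, 203, 222, 212 and 207 with EE. The groups did not meet (1.75-fold, log2 -0.81 ± 0.09, limma adjusted p = 7.99e-12). Its neighbour Hoxa11 (-0.73 ± 0.09), Msx1 (-1.34 ± 0.14), Meis2 (-1.12 ± 0.10) and the mesenchymal factor gene Tcf21 (-1.39 ± 0.09) fell, whereas Id1 (0.49 ± 0.09) and Hes1 (0.33 ± 0.12) rose. In the Tgfb, activin and Bmp list 18 of 28 fell (64.3%) and 4 rose (2 when a value on all 10 arrays was required). Among ligands, Tgfb3 (-1.05 ± 0.08), Bmp4 (-0.64 ± 0.09) and the inhibin alpha gene Inha (-0.45 ± 0.07) fell while Inhbb rose. Of the signal carriers Smad1 (-0.88 ± 0.08) and Smad5 (-0.59 ± 0.07) fell, Smad2 (0.27 ± 0.09) rose and the inhibitory Smad7 rose (0.49 ± 0.09). Other Smad5 probe sets did not pass (0.01 and -0.13). In Wnt signalling 11 of 23 fell and 5 rose (3 without control array 14 or 15), shares of 47.8% and 21.7% against 34.5% and 23.6% of all genes. Besides Fzd1, the receptor gene Fzd2 (-1.04 ± 0.08), the antagonist genes Dkk3 (-0.85 ± 0.11), Sfrp1 (-0.54 ± 0.08) and Sfrp2 (-0.66 ± 0.09) and the nuclear factor gene Tcf7l2 (-0.67 ± 0.10) fell. Axin2, a feedback target of the pathway, rose (0.75 ± 0.11), as did the adaptor gene Dvl1 (0.42 ± 0.09) and the ligand gene Wnt5a (0.31 ± 0.12). The call of Wnt5a was lost without control array 14 or EE array 19 or 21, and Tcf7l2 was at 0.022 when its probe sets were averaged.

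Vascular genes rose in 8 of 19 cases and fell in 6, shares of 42.1% and 31.6% against 23.6% and 34.5% of all genes. Vegfa, the growth factor that opens and extends vessels, was at 124, 137, 95.2, 177 and 131 in controls and 293, 231, 198, 252 and 307 with EE. The lowest EE array lay just above the highest control array (1.76-fold, log2 0.81 ± 0.12, limma adjusted p = 6.76e-08). Its receptor gene Kdr (0.52 ± 0.11), the endothelial nitric oxide synthase gene Nos3 (0.71 ± 0.07) and the hypoxia factor genes Hif1a (0.49 ± 0.06) and Epas1 (0.49 ± 0.08) rose. Averaging all probe sets of Epas1 turned it to -0.22, without a call. The adrenomedullin receptor gene Calcrl (-0.58 ± 0.09), the endothelial receptor gene Tie1 (-0.60 ± 0.09), Angpt2 (-0.38 ± 0.08) and the endothelin gene Edn1 (-0.34 ± 0.09) fell. The receptor gene Flt1 did not pass, while another of its probe sets passed at 0.63.

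Inflammatory mediators rose in 9 of 22 cases and fell in 5, and 15 rose when blanks were filled with a low value. The shares were 40.9% and 22.7%, against 23.6% and 34.5% of all genes. Ccl11, eotaxin, which draws eosinophils, was at 47.4, 38.7, 25.1 and 44.1 on 4 control arrays (blank on array 15) and at 199, 176, 235, 179.5 and 250.03 with EE. It rose 3.44-fold (log2 1.78 ± 0.18, limma adjusted p = 9.13e-13), with every EE array far above. The hyaluronan-linking gene Tnfaip6 (1.68 ± 0.19), the receptor gene Tnfrsf1a (0.92 ± 0.08), the leukocyte-capturing selectin gene Selp (0.77 ± 0.09) and the NF-kappaB inhibitor gene Nfkbia (0.75 ± 0.10) rose. With all probe sets averaged Tnfaip6 was at 0.45 and was not called (limma adjusted p = 0.0724). Tnfrsf11b, which encodes osteoprotegerin, fell (-1.03 ± 0.14), as did the cyclooxygenase gene Ptgs1 (-0.39 ± 0.08), while Ptgs2 did not pass. In the complement and coagulation list 8 of 20 fell (40%, against 34.5% of all genes), led by the lectin pathway protease gene Masp1 (-1.01 ± 0.11), and tissue factor, F3, was the member that rose (0.95 ± 0.19).

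Extracellular matrix genes fell in 21 of 47 cases (44.7% against 34.5% of all genes, median -0.19). They rose in 4 (8.51% against 23.6% of all genes, and 1 without control array 16 or EE array 23 or 24). Falls included Ccn2 (-1.29 ± 0.14), a matricellular target of Tgfb, the crosslinking enzyme gene Lox (-0.74 ± 0.11), the laminin gene Lama4 (-0.68 ± 0.10), lumican, Lum (-0.67 ± 0.10), and Fbln5 (-0.55 ± 0.07). The main fibrillar collagens Col1a1, Col1a2 and Col3a1 did not pass. Col6a3 rose (0.50 ± 0.09), with the smaller changes of Col6a1 (0.17 ± 0.06) and Col6a2 (0.18 ± 0.07), which form the same collagen. The metalloproteinase genes Mmp2 (-0.53 ± 0.08), Mmp14 (-0.48 ± 0.09), Mmp11 (-0.63 ± 0.12) and Mmp16 (-0.60 ± 0.09) fell, while the aggrecanase gene Adamts1 (1.77 ± 0.10) and the inhibitor gene Timp1 (0.76 ± 0.08) rose, among 7 falls and 2 rises of 14 tested. Falls were 50% and rises 14.3% of the 14, against 34.5% and 23.6% of all genes. Averaging all probe sets turned Mmp2 to 0.69 and Col6a2 to -1.46, both past the threshold. Of the aquaporin and ion transport genes 4 of 17 rose and 5 fell, shares (23.5% and 29.4%) near the 23.6% and 34.5% of all genes. Sodium pump beta subunits parted, with Atp1b3 at 0.55 ± 0.07 and Atp1b1 at -0.48 ± 0.12, and the water channels Aqp1, Aqp3 and Aqp5 did not pass. The water channel gene Aqp8 had a value on every EE array and on no control array at 4 h, and was not tested.

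Genes of the dividing cell were called higher in 1 case at 4 h. In the DNA replication and mitosis list 1 of 37 members rose, Pcna (0.40 ± 0.11), and 7 fell, among them the polymerase gene Pola1 (-0.33 ± 0.08) and the single-strand binding gene Rpa1 (-0.42 ± 0.11). Both shares of the list, 2.7% and 18.9%, were below the 23.6% and 34.5% of all genes. The mean over its 29 members with all values ran from -0.33 to 0.18 on EE and from -0.26 to 0.16 on control arrays. Mki67, the proliferation marker Ki-67, was at 153, 183, 173, 76.1 and 186 in controls and 84.7, 70.4, 193, 176 and 102 with EE. The groups overlapped, with control array 17 low and EE arrays 21 and 23 high, and the difference of -0.28 ± 0.20 did not pass (limma adjusted p = 0.239), while without control array 17 it was -0.46 and passed (limma adjusted p = 0.0448). The falls of the list numbered 13 without control array 17 and 12 without EE array 21. G1 cyclins and their inhibitors rose in 5 of 16 cases and fell in 4, shares of 31.2% and 25% against 23.6% and 34.5% of all genes. The cyclin gene Ccnh (0.77 ± 0.08), E2f5 (0.55 ± 0.06), E2f4 (0.44 ± 0.07) and their partner Tfdp1 (0.64 ± 0.10) rose, and the inhibitor gene Cdkn2c (-0.70 ± 0.13) and the cyclin gene Ccnd3 (-0.33 ± 0.07) fell. Ccnd1, the cyclin of the early G1 phase, was at 308, 376, 343, 296 and 291 in controls and 317, 366, 279, 303 and 336 with EE. These overlapped fully and the difference was -0.01 ± 0.08 (limma adjusted p = 0.929), while another Ccnd1 probe set passed at 0.26.

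**Figure D4:**
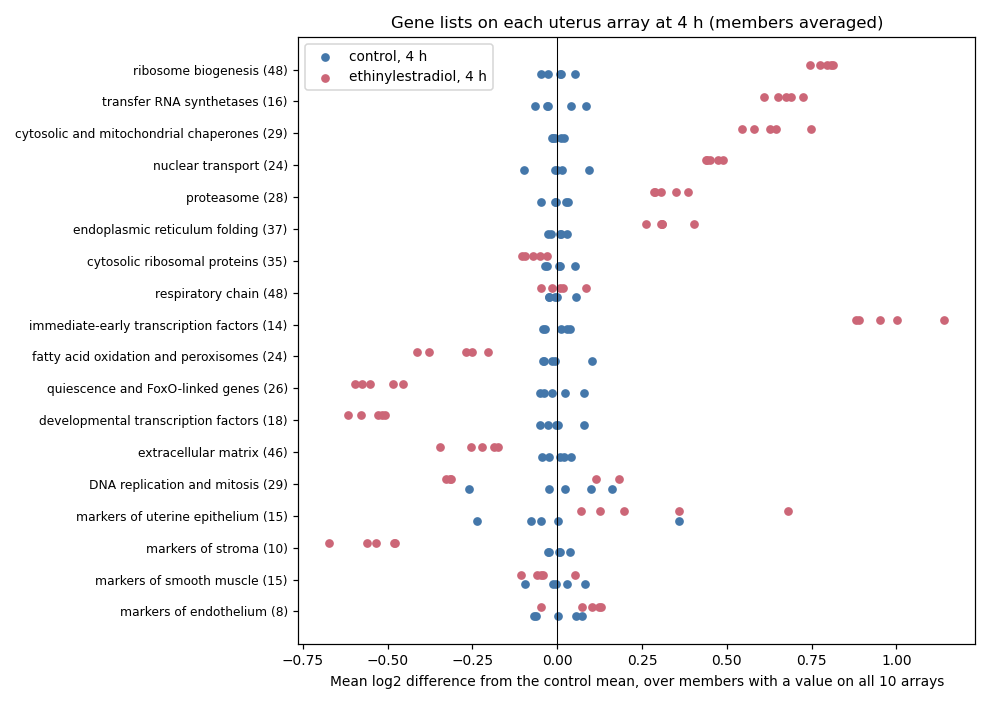
Mean log2 difference from the control mean (horizontal axis) over the members of each gene list that had a value on all 10 arrays (number in brackets), with one point per uterus array at 4 h. The EE arrays lie between 0.75 and 0.81 for ribosome biogenesis and between -0.67 and -0.48 for stroma markers, while in DNA replication and mitosis they spread from -0.33 to 0.18 within the group.

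Markers of the cell types were read for all 10 arrays. Stroma markers fell in 8 of 10 cases (80%) and 0 rose, and their summed intensity was 8818 to 10370 on EE and 12500 to 13270 on control arrays. Pdgfra, a receptor of stromal fibroblasts, was at 531, 518, 507, 602 and 539 in controls and 241, 188, 206, 244 and 233 with EE. The values of the groups were well apart (2.26-fold, log2 -1.18 ± 0.10, limma adjusted p = 2.33e-15). Vim (-0.67 ± 0.09), Thy1 (-0.74 ± 0.12) and Dpt (-0.53 ± 0.08) fell, whereas Col1a1 and Pdgfrb did not pass. The stroma list shares Hoxa11 and Hand2 with the developmental factors, of which Hand2 had too few values to be tested. It shares Lum, Dcn and Col1a1 with the matrix list. The part that stroma plays in the falls of those lists was not tested. Endothelium markers rose in 2 of 8 cases and fell in 3, with sums of 1733 to 2417 on EE and 1257 to 1525 on control arrays. Without Cldn5, left out after its values were seen, the sums overlapped, at 875.4 to 998.8 on EE and 943.1 to 1024 on control arrays. Over all 8 tested members, Cldn5 included, 25% were higher and 37.5% lower, near the 23.6% and 34.5% of all genes. Their median log2 difference was -0.08. Cldn5, a tight junction gene of endothelium, was at 424, 354, 329, 510.4 and 289 in controls and 1138, 858, 1067, 949 and 1496 with EE. It rose 2.75-fold (log2 1.46 ± 0.24, limma adjusted p = 4.26e-07), while Pecam1 (-0.35 ± 0.11) and Emcn (-0.27 ± 0.08) fell.

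Uterine epithelium markers rose in 5 of 16 cases (3 without control array 14) and fell in 2, with overlapping sums of 4241 to 6494 on EE and 3558 to 5309 on control arrays. The shares were 31.2% and 12.5%, against 23.6% and 34.5% of all genes. EE array 20 and control array 16 were the highest of their groups in this list, and the part of epithelium in the other results was not tested. Elf3 (1.0 ± 0.14), an epithelial factor, and Cd24 (0.76 ± 0.11) rose, and the keratin genes Krt7, Krt8, Krt18 and Krt19 and Epcam did not pass (Krt18 passed without control array 16). Smooth muscle markers were close, with 1 of 16 rising (6.25%) and 3 falling (18.8%), both shares below those of all genes. Smooth muscle sums were 18050 to 20340 on EE and 18370 to 20120 on control arrays. Macrophage markers rose in 1 of 9 cases (11.1%), Lyz2 (0.56 ± 0.15), and fell in 2 (22.2%), also below the shares of all genes. The count of falls was 0 or 1 without any one array other than control array 18. Macrophage sums were 1375 to 1688 on EE and 1128 to 1567 on control arrays. Of 3 tested adipocyte markers 1 fell, Lpl (-0.78 ± 0.20), a share of 33.3% near the 34.5% of all genes. Their sums were 285.1 to 349.9 on EE and 446.2 to 740.3 on control arrays. Averaged on the log2 scale these 3 markers overlapped, from -0.76 to -0.33 on EE and from -0.38 to 0.52 on control arrays. Neutrophil markers, of which Lcn2 alone was tested (0.67 ± 0.11), had sums of 135.2 to 168.4 on EE and 78.01 to 90.25 on control arrays. The part of either in the other results was not tested. Of the eosinophil and mast cell markers 9 of 12, of the lymphocyte markers 11 of 13, of the neutrophil markers 3 of 5 and of the oviduct and ovary markers 7 of 8 were blank on all 10 arrays.

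Clock, glucocorticoid and interferon lists were small and mixed. Of 8 clock genes 5 fell (62.5%, against 34.5% of all genes), including the repressor genes Nr1d1 (-1.05 ± 0.09) and Nr1d2 (-0.70 ± 0.12) and the output gene Dbp (-0.97 ± 0.13). Clock was the member that rose (0.43 ± 0.08), 12.5% against 23.6% of all genes, with 4 rises when 2 values per group sufficed. Another Clock probe set did not pass (0.18). Csnk1d fell (-0.16 ± 0.07) on the probe set used, but 2 of its other probe sets rose, and its call was lost without any one of 6 arrays (control 16, 17 and 18, EE 19, 21 and 23). Glucocorticoid-responsive genes rose in 6 of 13 cases and fell in 5, shares of 46.2% and 38.5% against 23.6% and 34.5% of all genes. The kinase gene Sgk1 (1.08 ± 0.11) and the metallothionein gene Mt2A (0.96 ± 0.12) rose, and Tsc22d3 (-1.03 ± 0.11), which encodes the leucine zipper protein GILZ, and Klf9 (-0.48 ± 0.08) fell. Interferon-responsive genes fell in 6 of 20 cases, near the 34.5% of all genes, with Rsad2 at -0.72 ± 0.11, and Irf7 rose (0.65 ± 0.11).

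The 2 h and 8 h groups of the uterus, each with its own 5 EE and 5 control arrays, place the 4 h result in time. At 2 h, 290 of 7212 genes were higher (4.02%) and 171 lower (2.37%), and at 8 h 1990 of 6894 were higher (28.9%) and 2450 lower (35.5%). Of 285 genes that rose at 2 h and were tested at both times, 254 also rose at 4 h, which is 89.1% of the 2 h rises and 15.7% of the 4 h rises. The falls shared 133 genes (86.9% and 5.6%). Between 4 h and 8 h 1323 rises were shared (81.5% of those at 4 h and 68.4% of those at 8 h) and 1832 falls (80.8% and 76%).

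The EE effect itself differed between 2 h and 4 h for 2253 of 6828 genes (33%), 1008 higher at 4 h (14.8%) and 1245 lower (18.2%). Transfer RNA synthetases had no call at 2 h, and 14 of 17 had a higher effect at 4 h than at 2 h. For ribosome biogenesis this held for 44 of 54, for chaperones for 24 of 29 and for proteasome genes for 15 of 28. The proteasome count was 16 with centred arrays and 10 after quantile normalization. The effect of Slc7a5 was 0.12 ± 0.10 at 2 h and 1.83 ± 0.10 at 4 h (difference 1.70 ± 0.13, limma adjusted p = 5.24e-14). Ctps1 (difference 1.54 ± 0.12), the cytokine signal factor gene Stat3 (1.43 ± 0.12), Tnfrsf12a (1.60 ± 0.14), Tsr1 (1.25 ± 0.11), Aars1 (1.23 ± 0.11), Etf1 (1.17 ± 0.11) and Eif2s2 (1.02 ± 0.09) complete the 8 with the smallest adjusted p. In the other direction stood the caspase gene Casp2 (-0.83 ± 0.08, limma adjusted p = 1.21e-12), Sash1 (-1.13 ± 0.12), Pdzrn3 (-1.36 ± 0.14), the sialyltransferase gene St3gal2 (-0.86 ± 0.09), Rbl2 (-0.91 ± 0.10), the repressor gene Hbp1 (-1.15 ± 0.12), Akap7 (-0.99 ± 0.11) and Zfyve26 (-0.75 ± 0.08). Casp2 was at -1.05 at 4 h, but with all probe sets averaged it was at -0.12 and was not called (limma adjusted p = 0.139). In the quiescence list 20 of 27 had a lower effect at 4 h than at 2 h, and in the stroma markers 7 of 10. Immediate-early genes were mostly higher at both times, with 13 of 18 called higher and 1 lower at 2 h, and 15 higher and 0 lower at 4 h. For 6 of 18 the effect was higher at 4 h than at 2 h and for 0 lower (5 and 1 after quantile normalization). Fos was at 2.24 ± 0.19 at 2 h (difference -0.16 ± 0.28, limma adjusted p = 0.702).

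Between 4 h and 8 h the EE effect differed for 1305 of 6659 genes (19.6%), 619 higher at 8 h (9.30%) and 686 lower (10.3%). The balance of directions depended on the scaling, with 906 higher and 535 lower when arrays were centred and 369 higher and 840 lower after quantile normalization. Immediate-early genes had a lower effect at 8 h in 10 of 17 cases and a higher one in 0. For Egr1 the effect went from 1.31 ± 0.15 to -0.09 ± 0.15 (difference -1.40 ± 0.21, limma adjusted p = 7.79e-07). Wnt4 went to 0.23 ± 0.16 and Cldn5 to 0.19 ± 0.24, neither of which passed at 8 h. Errfi1 was among the 8 with the smallest adjusted p in this direction (difference -1.56 ± 0.18), with the mitophagy receptor gene Bnip3l (-1.18 ± 0.13), the Fc receptor gene Fcgrt (-1.14 ± 0.12), the peroxisomal reductase gene Pecr (-0.81 ± 0.09), Ank2 (-1.27 ± 0.14), Ctps2 (-0.98 ± 0.11), Cdk19 (-1.05 ± 0.12) and Ech1 (-1.26 ± 0.15). Higher at 8 h than at 4 h were the effects of Ola1 (1.03 ± 0.09), the apical membrane gene Prom1 (1.27 ± 0.16), Ppil3 (0.98 ± 0.13), the folate enzyme gene Mthfd1 (1.01 ± 0.14), Dtx4 (0.67 ± 0.09), Wdr83os (0.61 ± 0.09), the aspartate and glutamate carrier gene Slc25a13 (0.84 ± 0.12) and Snd1 (0.71 ± 0.10). By list, the proteasome had 19 of 28 members with a higher effect at 8 h, mitochondrial ribosome and import genes 18 of 43, respiratory chain genes 12 of 48 and transfer RNA synthetases 8 of 17. These counts moved with the scaling, to 23, 23, 20 and 8 with centred arrays and to 10, 16, 3 and 3 after quantile normalization, while the 10 lower effects of the immediate-early genes stayed at 10 in both.

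**Figure D5:**
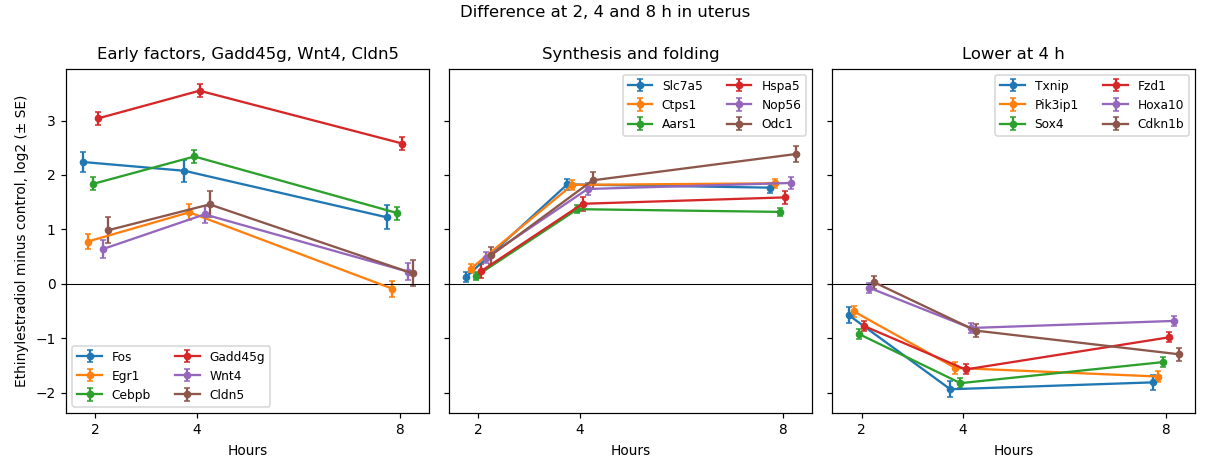
Log2 difference, EE minus control, at 2, 4 and 8 h for 18 genes, with bars of 1 standard error of the fit and points set slightly apart for legibility. Slc7a5 goes from 0.12 at 2 h to 1.83 at 4 h and 1.77 at 8 h, while Egr1 goes from 1.31 at 4 h to -0.09 at 8 h.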

How the data were processed

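Total RNA of rat uterus, isolated with an RNeasy kit per the labels' protocols, was read on Affymetrix RAE230A arrays. The authors deposited 1 intensity on a linear scale for each of 15923 probe sets and array, and 37.2% of the cells are blank. How they summarised and scaled the arrays, and why cells are blank, is not given in the sources used here.

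Groups came from the sample titles. Only probe sets of a single gene in the platform annotation were used (12789), which gave 10412 genes. The one with the highest mean over all arrays of the study, uterus and pituitary, stood for its gene. For some genes the chosen probe set could not be tested in uterus although another one could. Values were changed to log2(value + 30.4), the offset being the 10th percentile of all values. A group-means model was fitted over the 70 uterus arrays in 14 groups with blank cells left out gene by gene, and the variance was moderated with limma 3.58.1 in R 4.3.3. Genes with at least 3 of 5 values per group were tested, with Benjamini-Hochberg adjustment over all of them at 0.05. The same fit gave the differences between times. On simulated data of 6891 genes, 92 of 100 changes of 0.5 and 100 of 100 changes of 1 (log2) were recovered, with 9 false calls among 6691 unchanged genes. The simulated noise was independent between genes and few genes were changed, whereas 58.1% of genes passed in the data. The false-call count of the simulation therefore does not carry over to the data. Array measures were compared with exact permutation tests, and no 2 arrays were identical.

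Alternatives were another offset, another minimum of values, filled blanks, 2 scalings, other probe set rules, a fit of only the groups compared, a variance trend and each array left out in turn. Members and gene lists were chosen with earlier results of these data known. Genes named with values are the 15 largest rises and 15 largest falls with groups that do not overlap and a mean above the median, in each list the 8 with the smallest adjusted p and those moving against it, 9 fixed genes (Pgr, C3, Esr1, Esr2, Igf1, Vegfa, Ccnd1, Mki67, Fos), the 8 strongest calls per direction between times, and the 10 brightest genes valued in one group only. Of the symbols, 99.73% matched RefSeq, whose promoters (GRCr8) were searched. Lists of blood and skeletal muscle markers had few tested members, with 0 of 2 called for blood and 2 rises and 1 fall of 5 for skeletal muscle. The markers of lymphocytes and of oviduct and ovary each had 1 tested gene, which fell (for lymphocytes not with centring, quantile normalization, only the compared groups in the fit, or 6 of the arrays left out singly), and of 2 tested eosinophil and mast cell markers 0 passed.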

Additional observations from a re-analysis of the deposited data

Results flagged for a closer look

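Among 76 groups of values checked, 3 had an array far from the rest, and chance alone gives about 1 in 20. Bcat1 was at 33.9 on control array 14 against 66.6 to 69.6 on the 3 other control arrays with a value. Odc1 was at 697 on EE array 20 against 435 to 496 on the other EE arrays. The log2 difference between the 3′ and 5′ Actb control probe sets was 0.14 on EE array 19, below the other EE arrays.

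The effect of EE differed between 2 h and 4 h by a test of the difference in limma for the 16 genes named for that comparison. The effect was higher at 4 h for Ctps1 by 1.54 (log2), Slc7a5 by 1.70, Stat3 by 1.43, Tnfrsf12a by 1.60, Tsr1 by 1.25, Aars1 by 1.23, Etf1 by 1.17 and Eif2s2 by 1.02. For the genes with a lower effect at 4 h the differences were -0.83 for Casp2, -1.13 for Sash1, -1.36 for Pdzrn3, -0.86 for St3gal2, -0.91 for Rbl2, -1.15 for Hbp1, -0.99 for Akap7 and -0.75 for Zfyve26.

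The effect also differed between 4 h and 8 h for 16 named genes. It was higher at 8 h for Ola1 by 1.03 (log2), Prom1 by 1.27, Ppil3 by 0.98, Mthfd1 by 1.01, Dtx4 by 0.67, Wdr83os by 0.61, Slc25a13 by 0.84 and Snd1 by 0.71. At 8 h less 4 h the differences were -1.18 for Bnip3l, -1.14 for Fcgrt, -0.81 for Pecr, -1.27 for Ank2, -0.98 for Ctps2, -1.05 for Cdk19, -1.56 for Errfi1 and -1.26 for Ech1.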

How the results depend on the processing

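No paired analysis was possible because the EE and control arrays at 4 h share no replicate number. The total number of genes called at 4 h and in the differences between times stayed within 1.5 times the value reported under all alternatives run. Leaving out each array in turn gave 3776 to 3894 calls at 4 h, 2078 to 2302 between 2 h and 4 h and 1119 to 1365 between 4 h and 8 h. The counts of at least 2-fold differences followed the offset and the blanks. Rises numbered 233 with an offset of 1, 61 with an offset of 4 times the 10th percentile and 244 with blanks filled, against 141. Falls numbered 193, 7 and 149, against 70. A larger offset lowers every fold by construction. Without single arrays they were 132 to 145 rises and 63 to 70 falls. Centring each array gave 3910 calls and quantile normalization 3767, of which 44.3% and 45% were higher, against 40.7%. Between 4 h and 8 h the share of calls that were higher at 8 h was 47.4%, but 62.9% with centring (906 higher, 535 lower) and 30.5% with quantile normalization (369 higher, 840 lower), so higher calls were the majority with centring only, and the cause was not tested. Among list counts, 38 moved by over 1.5 times under other settings (1062 did not) and 44 on leaving out an array (956 did not). With the mean of all probe sets of a gene, the direction turned for 4 named genes, Col6a2 (-1.46), Epas1 (-0.22), Mmp2 (0.69) and Tcf7l2 (0.022), and the cause was not tested. With the direction kept, 17 named genes lost their call under at least 1 other setting and 4 gained one, and on leaving out an array 15 lost and 6 gained it at least once. The number of arrays and the blank cells limit what could be tested, since 2313 of 10412 genes were blank on all 10 arrays.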
